A study of Mus musculus with 21 samples.

Results

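The genes described are the interferon-induced transmembrane protein (IFITM) genes Ifitm1, Ifitm2, Ifitm3 and Ifitm6 in blood stem and progenitor cells of wild-type (WT) and Phf6 knockout (KO) mice. They are the 4 rows, of 54446 gene IDs in the read count table, whose Ensembl gene ID stands for one of those symbols, and all 4 were among the 21100 genes with enough counts to be tested. The genes were chosen by their levels in these libraries and by their fold changes between the groups, so the levels of the 4 genes and their differences between groups are given as a description, with no p-value printed for any of them. By the main test (edgeR), counts of how many of the 4 passed a threshold stand beside the share of all genes that did. For the other tools, DESeq2 and limma voom, that share is not given here. Nothing is read from any of these counts. The cells came from the bone marrow of 12-week-old C57BL/6 mice and were sorted with a lineage cocktail and antibodies to Sca-1, cKit, CD150 and CD48. Each of the 21 libraries was made from 100 to 200 sorted cells. The long-term haematopoietic stem cell (LT-HSC) groups held 2 WT and 3 KO libraries, the MPP2 groups held 4 WT and 4 KO libraries, and the MPP3 groups held 4 WT and 4 KO libraries. MPP2 and MPP3 are multipotent progenitors, of which MPP2 is biased towards megakaryocytes and erythroid cells and MPP3 towards granulocytes and monocytes. All 6 groups share the C57BL/6 background and the age, and no treatment is named in the labels. Which KO allele was used, and whether a Cre driver was, is not given in the sources used here.

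IFITM proteins are small membrane proteins of the plasma membrane and of endosomes that hinder the fusion of enveloped viruses with the cell. Most are induced by type I and type II interferons: a type I interferon binds the receptor pair Ifnar1 and Ifnar2, the kinases Jak1 and Tyk2 pass the signal on, and a complex that includes Irf9 binds interferon-stimulated response elements (ISREs), whereas interferon gamma acts on gamma-activated sites (GAS). Stem cells are known to carry part of this antiviral programme without interferon, and Ifitm1 and Ifitm3 are among the genes for which this has been described. Ifitm6 is known from myeloid cells.

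The 4 genes lie within 63088 bases of mouse chromosome 7 (mm10, GENCODE M21). Ifitm2 (ENSMUSG00000060591.9) spans chr7:140954837-140955987 on the minus strand, Ifitm1 (ENSMUSG00000025491.14) chr7:140967221-140969825 on the plus strand, Ifitm3 (ENSMUSG00000025492.6) chr7:141009586-141010770 on the minus strand and Ifitm6 (ENSMUSG00000059108.4) chr7:141015699-141017924 on the minus strand. All are protein-coding, with 106 coding codons in Ifitm1, 144 in Ifitm2, 137 in Ifitm3 and 124 in Ifitm6. The coding sequences of Ifitm1, Ifitm2 and Ifitm3 were 80.8% to 81.9% identical to each other, and that of Ifitm6 was 63.5% to 68.8% identical to theirs.

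A coding stretch shared by the first 3 genes is shown because it bears on how reads can be told apart. Each copy lies in 1 coding exon, is written 5′ to 3′ in the sense direction and comes from the GENCODE M21 transcripts. Capitals in Ifitm6 mark the 15 of 40 bases that differ from the other 3 genes.
Ifitm1 (chr7:140968351-140968390, plus strand): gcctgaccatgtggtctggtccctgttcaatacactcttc
Ifitm2 (chr7:140955718-140955757, minus strand): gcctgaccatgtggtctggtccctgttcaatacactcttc
Ifitm3 (chr7:141010445-141010484, minus strand): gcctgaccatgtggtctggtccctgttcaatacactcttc
Ifitm6 (chr7:141016748-141016787, minus strand): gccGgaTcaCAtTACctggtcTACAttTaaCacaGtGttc
The 3 upper lines are identical. Longer identical stretches were few: of all stretches of 50 bases in the transcripts, Ifitm1 and Ifitm3 shared 15 (1.8% of Ifitm1's and 2.38% of Ifitm3's), Ifitm2 and Ifitm3 shared 20 (3.3% of Ifitm2's and 3.18% of Ifitm3's), and no other pair of the 4 genes shared any. How reads that fit several genes were counted is not given in the sources used here, so a small part of the counts of Ifitm1, Ifitm2 and Ifitm3 may be split among them.

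The sequences just before the transcript starts are shown because these genes are textbook interferon targets and their levels are compared with interferon target genes further on. They come from RefSeq promoter windows (GRCm38.p6) that run from 250 bases before to 50 bases after the RefSeq start, and all 4 genes matched by symbol. Each line gives the 100 bases that end just before the first exon base annotated in that window, 5′ to 3′ on the gene's strand, and capitals mark a match to the ISRE core, which is GAAA, any 2 bases and GAAA again. The Ifitm1 and Ifitm6 stretches lie inside the longer gene spans that GENCODE gives.
Ifitm1 (chr7:140967928-140968027): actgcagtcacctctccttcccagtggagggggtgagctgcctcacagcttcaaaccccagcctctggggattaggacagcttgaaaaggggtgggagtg
Ifitm2 (chr7:140955988-140956087): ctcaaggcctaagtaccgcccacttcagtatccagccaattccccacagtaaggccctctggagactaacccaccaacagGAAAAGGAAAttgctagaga
Ifitm3 (chr7:141010771-141010870): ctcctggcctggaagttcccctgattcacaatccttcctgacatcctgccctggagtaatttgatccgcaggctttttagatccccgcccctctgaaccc
Ifitm6 (chr7:141016909-141017008): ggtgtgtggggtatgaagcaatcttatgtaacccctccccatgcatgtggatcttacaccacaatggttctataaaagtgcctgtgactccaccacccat
Ifitm3, 27 bases just after the RefSeq start (chr7:141010716-141010742): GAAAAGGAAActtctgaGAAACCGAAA
Both strands of each whole window were searched for the ISRE core and for the GAS letters TTCNNNGAA. Ifitm2 held 1 ISRE core match, Ifitm3 held 2 ISRE core matches and 1 GAS match that overlaps the later of them, Ifitm6 held 1 GAS match, and Ifitm1 held neither. Of 32851 promoter windows of the same length, 3.44% held an ISRE core match, 0.225% held 2 or more and 8.3% held a GAS match. Of the 43 interferon target genes with a promoter window, 53.5% held an ISRE core match and 27.9% a GAS match. A match describes letters in this window and is not a measured site.

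Library totals ran from 18892723 to 31611366 counts with a median of 26158938, and 3 counts, the most that a count of 0 allows, stood for 0.0985 to 0.191 CPM (counts-per-million) in 1 library. CPM were scaled by TMM factors, which were 0.496 in KO MPP2 1 and 0.770 in KO MPP3 1, where transcripts of B and plasma cells took a large share. Phf6 lay at 2.45 to 13.3 CPM in the 11 KO libraries and at 54.4 to 209 CPM in the 10 WT libraries. Cd48, the gene of a sort marker that LT-HSCs lack, averaged 9.62 and 10.96 CPM in WT and KO LT-HSC and 343 to 503.6 CPM in the MPP groups. Slamf1, the gene of CD150, averaged 58.1 and 59.3 CPM in LT-HSC, 49.0 and 48.0 CPM in MPP2 and 0.931 and 0.341 CPM in MPP3. Both sort markers thus lay where their labels place them. Libraries with consecutive title numbers of 1 genotype were taken as 1 mouse, so the libraries of different populations are not independent, and the p-values measure the spread between these libraries. In bulk samples such as these, fewer cells of a type and less RNA per cell cannot be told apart.

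Ifitm3, which restricts influenza virus from late endosomes, was the most abundant of the 4 genes in every group. Per length (CPM divided by kilobases of exon, or RPKM) it averaged 1931 in WT LT-HSC and 2270 in KO LT-HSC, and 1059 to 1252 in the MPP groups. On the same length scale Ifitm1, a mostly plasma membrane protein, averaged 919 and 793 in WT and KO LT-HSC and 189 to 408 in the MPP groups, and Ifitm2, its endosomal relative, averaged 353 to 570 over the 6 groups. Ifitm6 averaged 0 to 14.3. Ifitm1 therefore lay above Ifitm2 in LT-HSC and below it in MPP2. In WT MPP3 they were nearly level, at 408 and 411, and Ifitm1 moved above Ifitm2 to 507 when the longest transcript gave the length instead of all exons.

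Ifitm1 was highest in LT-HSC and lowest in KO MPP2. In WT LT-HSC it measured 1013 and 997 CPM, and in KO LT-HSC it measured 893, 762 and 947 CPM. In WT MPP2 it measured 325, 365, 236 and 649 CPM, against 282, 194, 113 and 236.0 CPM in KO MPP2. In WT MPP3 it measured 475 CPM, 584 CPM, 242 CPM and 486 CPM, against 404, 269.8, 223 and 223 CPM in KO MPP3. All 5 LT-HSC libraries therefore lay above all 16 MPP libraries, which 1.54% of all genes tested also did. In order of group means, WT LT-HSC (1005 ± 11.6 CPM, SD, n = 2) was followed by KO LT-HSC (868 ± 95.04, n = 3), WT MPP3 (447 ± 145, n = 4), WT MPP2 (394 ± 179, n = 4), KO MPP3 (279.7 ± 85.5, n = 4) and KO MPP2 (206 ± 72.1, n = 4). Neighbours in that order overlapped among the MPP groups. They did not overlap between the 2 LT-HSC groups, as was so for 18.3% of all genes, or between KO LT-HSC and WT MPP3.

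Ifitm3 was also highest in LT-HSC, but with KO above WT there. It measured 1441 and 1177 CPM in WT LT-HSC and 1673, 1487 and 1457 CPM in KO LT-HSC. In WT MPP2 it measured 880.1, 659, 709.6 and 1147 CPM, and in KO MPP2 792, 860.3, 747 and 589 CPM. In WT MPP3 it measured 912, 756, 578 and 626 CPM, and in KO MPP3 1083, 626, 791 and 784 CPM. The 5 LT-HSC libraries again lay above all 16 MPP libraries, by a narrow margin of 1177 over 1147 CPM. The order of group means was KO LT-HSC (1539 ± 117), WT LT-HSC (1309 ± 187), WT MPP2 (849 ± 220.1), KO MPP3 (821 ± 190.4), KO MPP2 (747 ± 115) and WT MPP3 (718 ± 149.6 CPM), and the 4 MPP groups overlapped.

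Ifitm2 was the most even of the 3 abundant genes. It measured 330.0 and 321 CPM in WT LT-HSC and 329.5, 308 and 351 CPM in KO LT-HSC. In WT MPP2 it measured 358, 296, 307 and 532 CPM, and in KO MPP2 254, 292, 298 and 331 CPM. In WT MPP3 it measured 289, 299.5, 221 and 268 CPM, and in KO MPP3 267, 139, 258 and 260.5 CPM. Group means ran from 231 ± 61.4 CPM (SD, n = 4) in KO MPP3 to 373 ± 109 CPM (n = 4) in WT MPP2, and every group overlapped its neighbours in that order. Groups further apart could be separate: the 2 WT LT-HSC libraries lay above the 4 of WT MPP3 (321 to 330.0 against 221 to 299.5 CPM), and the 3 of KO LT-HSC above the 4 of KO MPP3 (308 to 351 against 139 to 267 CPM). In these comparisons 26.3% and 12.0% of all genes did not overlap. WT MPP2 4 was the highest WT MPP2 library for Ifitm1, Ifitm2 and Ifitm3 alike.

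**Figure D1:**
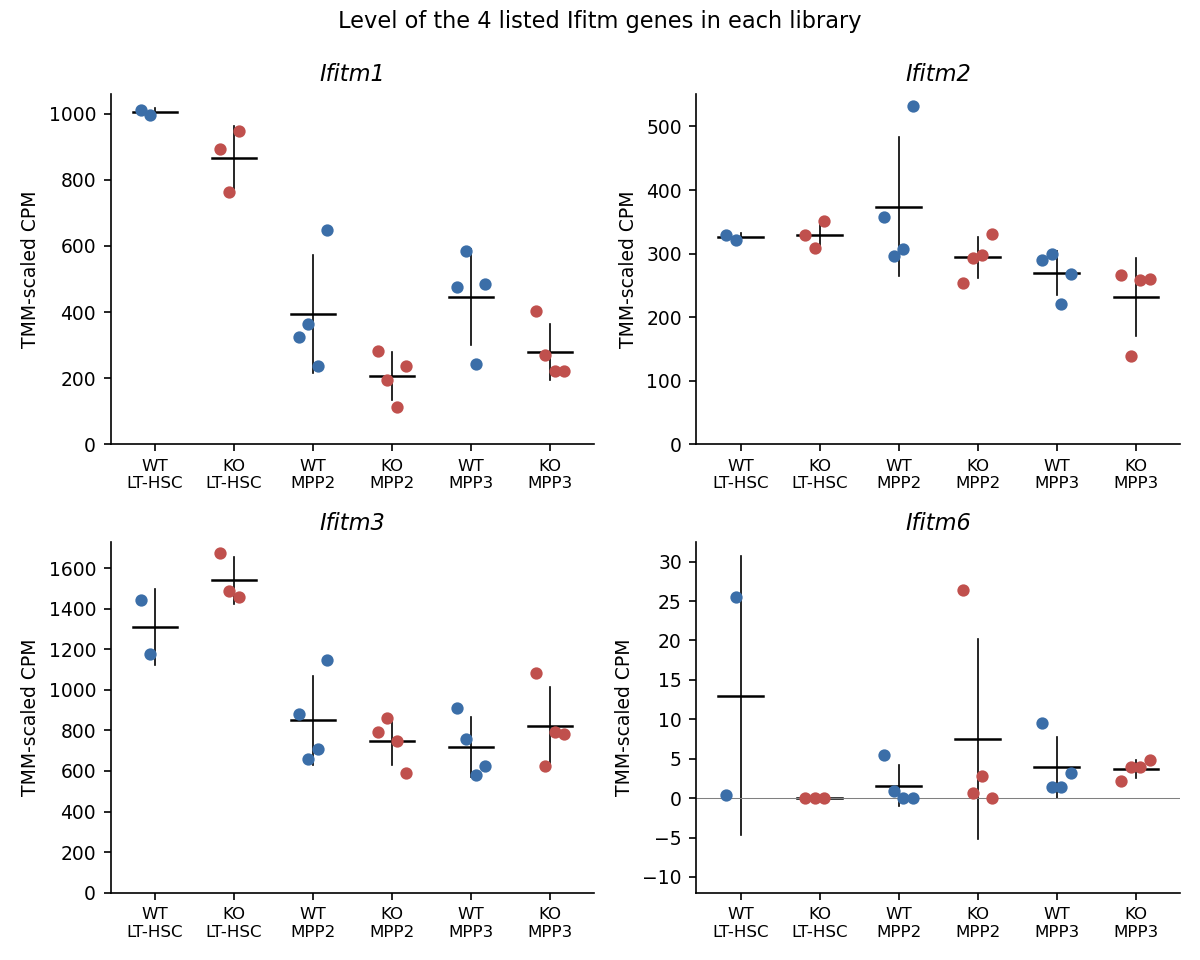
Level of each of the 4 IFITM genes in every library, in TMM-scaled CPM, by population and genotype. Each panel has its own axis, which starts at 0 except for Ifitm6, where it starts below 0. Points are libraries, lines are group means and bars the SD. The 5 LT-HSC libraries lie above the 16 MPP libraries for Ifitm1 and Ifitm3, the Ifitm2 libraries of LT-HSC lie within the range of the MPP libraries, and Ifitm6 is above 9 CPM in 3 libraries.

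Within a mouse, LT-HSC was mostly the highest population. In 5 of the 5 mice with all 3 libraries, 2 WT and 3 KO, LT-HSC was the highest of the 3 populations for Ifitm1 and for Ifitm3, and in 4 of 5 for Ifitm2. LT-HSC was the highest in all 5 mice for 4.5% of the genes tested. The ratio of LT-HSC to MPP2 of the same mouse was 2.73 to 4.01 (median 3.16) for Ifitm1, 1.64 to 2.47 (median 1.79) for Ifitm3 and 0.921 to 1.3 (median 1.06) for Ifitm2. Against MPP3 it was 1.71 to 4.25 (median 2.21) for Ifitm1, 1.54 to 2.38 (median 1.58) for Ifitm3 and 1.07 to 2.21 (median 1.24) for Ifitm2. WT mouse 2 gave the lowest Ifitm1 ratio and KO mouse 4 the highest, against either MPP population.

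Fitted differences between LT-HSC and the MPP populations were above 0 for Ifitm1 and Ifitm3 in both genotypes. In WT, LT-HSC exceeded MPP2 by a log2 fold change of 1.35 ± 0.37 (SE) for Ifitm1 and 0.62 ± 0.24 for Ifitm3, and exceeded MPP3 by 1.17 ± 0.37 and 0.87 ± 0.24. In KO, the differences from MPP2 were 2.06 ± 0.34 for Ifitm1 and 1.04 ± 0.21 for Ifitm3, and those from MPP3 were 1.63 ± 0.34 and 0.91 ± 0.21. By edgeR's quasi-likelihood test with Benjamini-Hochberg adjustment at 0.05, 2 of the 4 genes passed in KO LT-HSC against MPP2 (1.81% of all genes did), the same 2, Ifitm1 and Ifitm3, passed in KO LT-HSC against MPP3 (2.64%), and 0 of 4 passed in WT LT-HSC against MPP2 (0.63%) or MPP3 (1.1%). Ifitm1 and Ifitm3 had an unadjusted p under 0.05 in both WT comparisons, as 13% and 9.2% of all genes did. There limma voom called both, and DESeq2 called 1, Ifitm1 against MPP2 and Ifitm3 against MPP3. The shares of all genes that these tools called are not given here, so nothing is read from their calls. In KO an unadjusted p under 0.05 was reached by 3 of the 4 genes against MPP2, with Ifitm6 lower in LT-HSC (16.3% of all genes reached it), and by all 4 against MPP3, with Ifitm6 lower and Ifitm2 higher in LT-HSC (15.6%). The Ifitm2 fold change against MPP3 was 0.51 ± 0.22 in KO and 0.27 ± 0.24 in WT. In each KO comparison DESeq2 called 3 genes and limma voom 2. Leaving out KO LT-HSC 1 or KO MPP2 4 ended the Ifitm3 call against MPP2. Leaving out any of KO LT-HSC 1, 2 or 3 or of KO MPP3 2, 3 or 4 ended the Ifitm3 call against MPP3.

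MPP2 and MPP3 differed less. Ifitm2 was higher in MPP2 than in MPP3 by a log2 fold change of 0.47 ± 0.20 in WT and 0.35 ± 0.20 in KO, whereas Ifitm1 gave -0.18 ± 0.32 and -0.43 ± 0.32 and Ifitm3 gave 0.24 ± 0.20 and -0.13 ± 0.20. Of the 4 genes, 0 passed in WT (1.2% of all genes did; 1 of the 4, Ifitm2, had an unadjusted p under 0.05, as 13.5% of all genes did) and 0 in KO (0.886%; 0 of 4 unadjusted, 14.5% of all genes), and DESeq2 and limma voom called 0 in both.

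**Figure D2:**
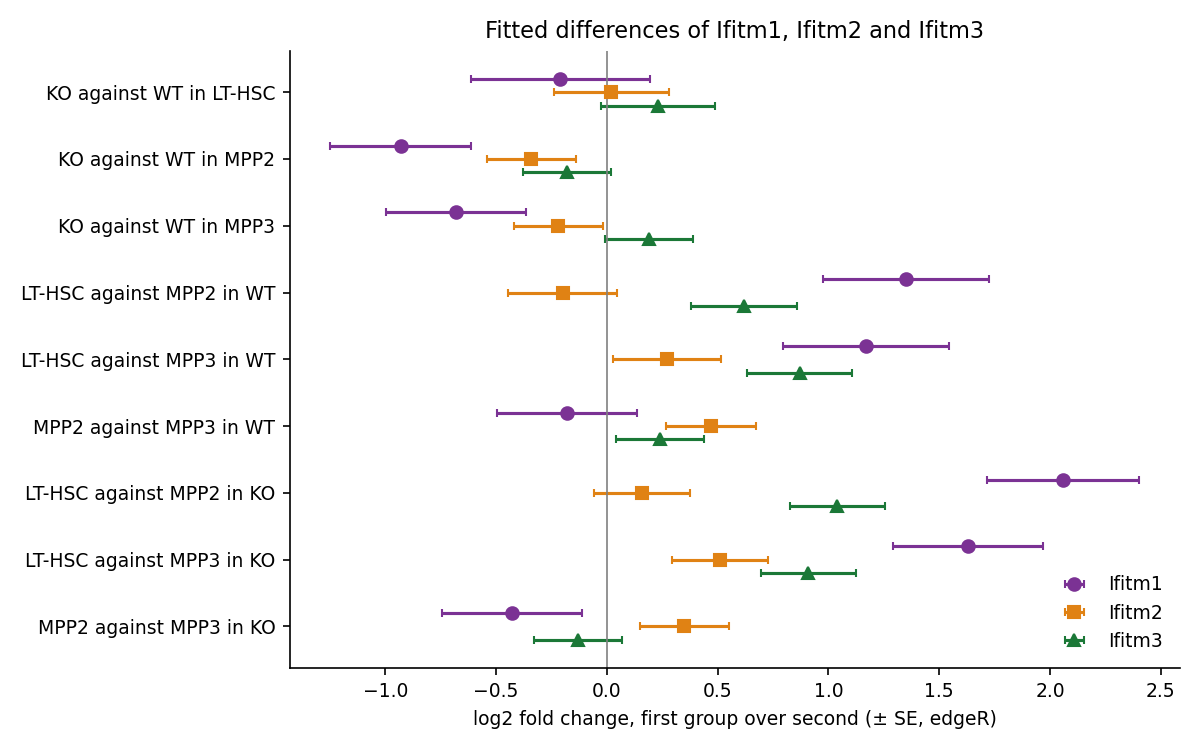
Fitted log2 fold change with its standard error (bars) of Ifitm1, Ifitm2 and Ifitm3 in 9 comparisons, from 1 edgeR fit of 21 libraries. Ifitm1 and Ifitm3 are higher in LT-HSC than in MPP2 and MPP3 in both genotypes, and Ifitm1 gives the lowest of the 3 values in each of the KO against WT comparisons.

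Against WT, the KO groups had lower Ifitm1 means in all 3 populations, and in MPP2 and MPP3 its fitted values were farther from 0 than those of Ifitm2 and Ifitm3. For Ifitm1 the log2 fold change of KO against WT was -0.21 ± 0.41 (SE) for LT-HSC, -0.93 ± 0.32 for MPP2 and -0.68 ± 0.32 for MPP3. The LT-HSC value became 0.04, on the other side of 0, when replicate numbers entered the fit as a block. That block put KO LT-HSC 3 with the libraries of number 3, although its title number gave it to KO mouse 4. For Ifitm2 it was 0.02 ± 0.26, -0.34 ± 0.20 and -0.22 ± 0.20, and for Ifitm3 0.23 ± 0.26, -0.18 ± 0.20 and 0.19 ± 0.20. Of the 4 genes, 0 passed the test for LT-HSC (0.00474% of all genes did), for MPP2 (0.0142%) or for MPP3 (0.00948%). An unadjusted p under 0.05 was reached by 1 gene in each population, Ifitm6 in LT-HSC and Ifitm1 in MPP2 and MPP3, where 2.43%, 6.72% and 5.62% of all genes reached it. DESeq2 called 1 gene in LT-HSC, Ifitm6, and 0 in MPP2 and MPP3, and limma voom called 0 in each. WT and KO libraries did not overlap for 3 of the 4 genes in LT-HSC, where 18.3% of all genes did not, and overlapped for all 4 in MPP2 and MPP3, where 2.5% and 2.69% of genes did not. Without WT MPP2 4 the Ifitm1 value in MPP2 was -0.58.

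Libraries of the 2 genotypes that share a replicate number form 10 pairs from 4 pairs of mice. Ifitm1 was lower in the KO library of all 10 pairs, at 0.364 to 0.922 times the WT value (median 0.648), and 0.536% of all genes were lower in KO in every pair. By pair the KO to WT ratio of Ifitm1 was 0.881 and 0.764 in LT-HSC, 0.868, 0.532, 0.477 and 0.364 in MPP2 and 0.850, 0.462, 0.922 and 0.458 in MPP3. Ifitm2 was lower in KO in 9 of 10 pairs (median ratio 0.966), and Ifitm3 was lower in 3 and higher in 7 (median ratio 1.17). The pairs of 1 mouse pair are not independent of each other.

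**Figure D3:**
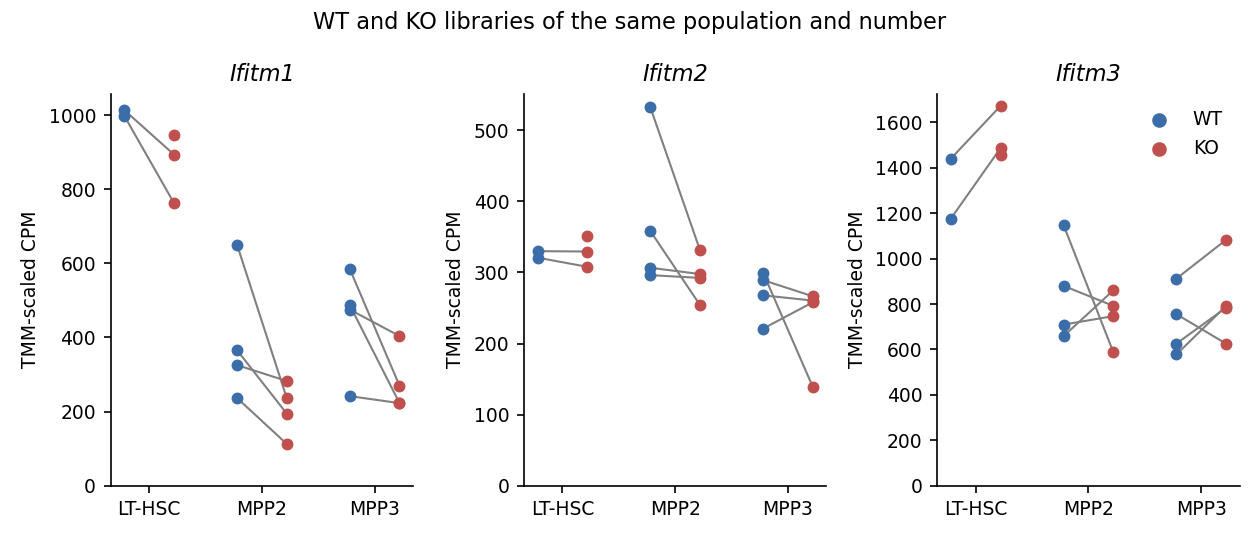
Level (CPM) of Ifitm1, Ifitm2 and Ifitm3 in WT and KO libraries that share a replicate number, joined by a line, for LT-HSC (2 pairs), MPP2 (4) and MPP3 (4). Every Ifitm1 line runs down from WT to KO, and the Ifitm3 lines run in both directions.

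Title numbers split the libraries into 2 sets, under 100 (replicates 1 and 2) and over 100 (the rest), and the values were also taken within each. As a log2 ratio of means, KO against WT for Ifitm1 was -0.53 and -1.34 in MPP2 and -0.65 and -0.71 in MPP3, and -0.28 in LT-HSC, where only the lower numbers hold a WT library. Ifitm3 changed sign between the sets in MPP2 (0.10 and -0.48) and not in MPP3 (0.04 and 0.39), and Ifitm2 changed sign in MPP3 (-0.54 and 0.09), as did Ifitm6 (-0.84 and 0.94). The KO difference between LT-HSC and MPP2 was 1.8 and 2.44 for Ifitm1 and 0.94 and 1.13 for Ifitm3. Between KO LT-HSC and MPP3 it was 1.3 and 2.09 for Ifitm1 and 0.89 in both sets for Ifitm3. In WT, where only the lower numbers hold LT-HSC, LT-HSC exceeded MPP2 by 1.54 for Ifitm1 and 0.77 for Ifitm3, and MPP3 by 0.93 and 0.65. The KO effect did not pass the test of a difference between populations for any of the 4 genes (0 of 4 in each of 3 comparisons, as for 0.0% of all genes). For Ifitm1 that difference was 0.71 ± 0.52 between LT-HSC and MPP2, 0.46 ± 0.52 between LT-HSC and MPP3 and -0.25 ± 0.45 between MPP2 and MPP3. The unadjusted p was under 0.05 for Ifitm6 in both differences that involve LT-HSC (3.6% of all genes between LT-HSC and MPP2, 2.47% between LT-HSC and MPP3) and for 0 of the 4 between MPP2 and MPP3 (4.47%). DESeq2 called Ifitm6 between LT-HSC and MPP2 and 0 genes in the other differences, and limma voom called 0.

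Taken within a library, where scaling cannot enter, the count of Ifitm1 relative to that of Ifitm3 averaged 0.775 (range 0.703 to 0.847) in WT LT-HSC and 0.565 (0.513 to 0.650) in KO LT-HSC. It averaged 0.456 (0.333 to 0.566) in WT MPP2 against 0.284 (0.151 to 0.401) in KO MPP2, and 0.622 (0.418 to 0.777) in WT MPP3 against 0.342 (0.281 to 0.431) in KO MPP3. The genotypes did not overlap in LT-HSC (2 WT and 3 KO libraries) and overlapped in MPP2 and MPP3. Of single genes, 18.3% did not overlap in LT-HSC, and 2.5% and 2.69% did not in MPP2 and MPP3. The share among ratios of other genes was not taken, so nothing is read from the gap in LT-HSC. The count of Ifitm2 relative to Ifitm3 averaged 0.251 and 0.215 in WT and KO LT-HSC, 0.438 and 0.406 in MPP2 and 0.381 and 0.282 in MPP3. A ratio shows unequal change of 2 genes and not which of them changed. The summed level of the 4 genes averaged 2653 and 2736 CPM in WT and KO LT-HSC, 1618 and 1255 CPM in MPP2 and 1438 and 1336 CPM in MPP3.

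Ifitm6 behaved differently from the other 3 genes: it was scarce, and most of its counts came from a few libraries. In WT LT-HSC it had 13 and 751 counts (0.457 and 25.5 CPM), and in KO LT-HSC it had 0 in all 3 libraries. In MPP2 it had 135, 23, 0 and 0 counts in WT (up to 5.43 CPM) and 414, 17, 79 and 0 in KO (up to 26.4 CPM). In MPP3 it had 234, 41, 39 and 90 counts in WT (1.37 to 9.53 CPM) and 49, 70, 114 and 138 in KO (2.13 to 4.90 CPM). WT LT-HSC 2 held 98.3% of the 764 WT LT-HSC counts. Set against 3 counts over the whole KO LT-HSC group, the WT LT-HSC mean was at least 383-fold higher. With WT LT-HSC 1 alone it was at least 13.2-fold higher. These limits cover counting error only and leave out the spread between libraries, so they do not bound a difference between the genotypes. In a single library 3 counts stood for 0.0985 to 0.191 CPM, beside 0.457 CPM in WT LT-HSC 1. The log2 fold change of KO against WT was 2.24 ± 1.67 in MPP2 and -0.06 ± 1.59 in MPP3.

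The 3 libraries with the most Ifitm6, WT LT-HSC 2, KO MPP2 1 and WT MPP3 1, were also the 3 with the most neutrophil transcripts. The summed level of an 18-gene neutrophil list was 6094 CPM in WT LT-HSC 2, 17940 CPM in KO MPP2 1 and 2770 CPM in WT MPP3 1, against 330 to 998 CPM (median 704) in the other 18 libraries. Of the list's genes, 0 to 2 were at 0 in those 3 libraries and 1 to 13 in the others. Lcn2, a granule protein that binds siderophores, lay at 82.4 to 591 CPM in the 3 libraries and at 0 to 6.80 CPM in the rest. Ltf (lactoferrin) lay at 168 to 767 CPM against 0 to 1.14 CPM, with 9 of the 18 at 0. A 14-gene monocyte list summed to 98.1 to 3613 CPM in the 3 libraries and to 8.59 to 1508 CPM in the others. The highest sum was that of KO MPP2 1, mostly from Ly6c2 (3512 CPM). WT LT-HSC 2 and WT MPP3 1 lay within the range of the others, so the list did not set the 3 apart. Ifitm6 lay at 9.53 to 26.4 CPM in the 3 libraries and at 0 to 5.43 CPM in the other 18, of which 6 were at 0. Among those 18, the 7 MPP3 libraries all held Ifitm6 (1.37 to 4.90 CPM), 3 of the 7 MPP2 libraries were at 0, and 3 of the 4 LT-HSC libraries were at 0. Without the 3 libraries the KO against WT value turned from 2.24 to -0.46 in MPP2 and from -0.06 to 0.88 in MPP3, and without WT MPP3 1 alone the MPP3 value was 0.89. The part of neutrophil transcripts in the Ifitm6 differences was not tested.

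**Figure D4:**
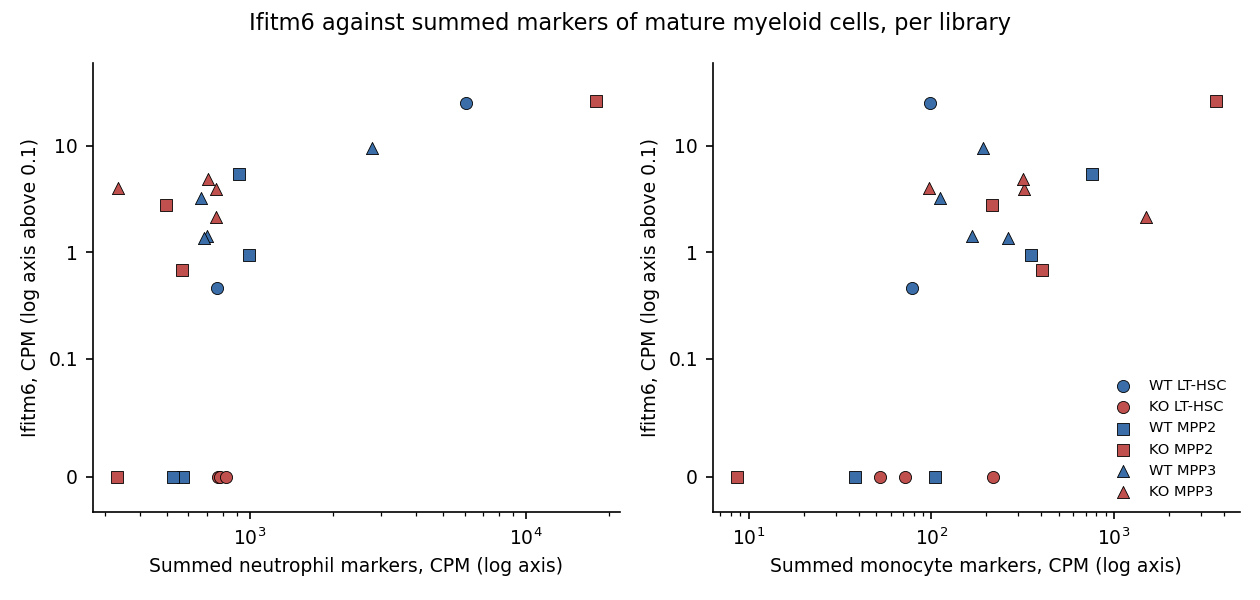
Ifitm6 level in each library (CPM) against the summed level of the neutrophil and the monocyte marker lists (CPM), on logarithmic axes. The 3 libraries above 9 CPM of Ifitm6 are those with 2770 CPM or more of neutrophil markers. By monocyte sum, WT LT-HSC 2 and WT MPP3 1 lie within the range of the others and KO MPP2 1 lies above it.

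The genes whose levels ran most like each of the 4 across the libraries were listed by Pearson's r of log2(CPM + 1) over 21 libraries, among 9514 genes. These r values describe points that share mice and libraries, and the lists depend on the measure: by Spearman's rho the first 5 genes were others except Tsc22d3 for Ifitm1, Hmgn3 for Ifitm3 and Pglyrp1 for Ifitm6. For Ifitm1 they included Tsc22d3 (0.91), Hoxa10 (0.89), Efcab14 (0.89) and Arl14ep (0.88), and r was 0.70 to 0.78 once population means were taken out. Tsc22d3, a glucocorticoid-induced leucine zipper protein, averaged 440.2 and 351 CPM in WT and KO LT-HSC, 181 and 119.9 CPM in MPP2 and 211 and 120.1 CPM in MPP3. For Ifitm3 they were Hmgn3 (0.85), Slfn2 (0.84), Bex1 (0.83), Hacd4 (0.83) and Sult1a1 (0.82), all highest in LT-HSC, and r was 0.23 to 0.59 with population means out. For Ifitm2 they were Mff (0.90), Akr1e1 (0.88), Spag7 (0.87), Pdcd6 (0.87) and Med28 (0.87), and rho was only 0.46, 0.49 and 0.44 for the last 3. For Ifitm6 they were Lcn2 (0.82), Camp (0.79), Chil3 (0.79), Ltf (0.78) and Pglyrp1 (0.78), of which Lcn2, Camp and Ltf encode neutrophil granule proteins. Among the 4 genes, r was 0.75 for Ifitm1 with Ifitm3 (0.36 with population means out), 0.49 for Ifitm2 with Ifitm3 and 0.40 for Ifitm1 with Ifitm2, and -0.35 to -0.15 for Ifitm6 with the other 3.

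Of the IFITM genes outside the list, Ifitm7 (chr16:13981699-13986888, minus strand) averaged 8.18 ± 5.15 CPM (SD, n = 2) in WT LT-HSC and 10.4 ± 4.75 CPM (n = 3) in KO LT-HSC, 1.201 and 1.436 CPM in WT and KO MPP2 and 4.28 and 1.95 CPM in MPP3. LT-HSC was the highest population in all 5 mice with 3 libraries, as for Ifitm1 and Ifitm3. The KO LT-HSC against MPP2 difference of Ifitm7 was 2.86 ± 0.98 on the log2 scale and did not pass (edgeR adjusted p = 0.154), with 1 call by limma voom and 1 by DESeq2 in that comparison. Ifitm5, known from bone-forming cells, and Ifitm10 averaged under 1 CPM in every group. Of 9 further symbols of genes with the CD225 domain that defines the family, 7 were in the table and 2, Prrt1 and Tmem91, were tested, with group means of 0.771 to 2.38 and 3.70 to 11.9 CPM. Of these 2, 0 were called by edgeR, DESeq2 or limma voom in any comparison of genotypes or populations, and at an unadjusted p under 0.05 there were 0 between KO and WT in each population.

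The interferon pathway was read from lists of ligands, receptors, signalling proteins, regulatory factors and target genes. None of 10 ligand genes had enough counts to be tested. Of the 6 receptor genes, 5 were tested, and 2 of them were lower in KO LT-HSC than in KO MPP3: Ifnar2, a subunit of the type I receptor, at 53.8 against 132 CPM (log2 fold change -1.29 ± 0.32, edgeR adjusted p = 0.0342), and Il10rb, a subunit shared by the receptors of IL-10 and type III interferon, at 36.0 against 82.2 CPM (-1.19 ± 0.29, adjusted p = 0.0276). Of all genes tested, 2.64% passed in KO LT-HSC against MPP3 by edgeR. In WT the Il10rb difference was -1.37 and missed the threshold (edgeR adjusted p = 0.0549). Limma voom called 2 receptor genes in LT-HSC against MPP3 of each genotype and 2 in KO MPP2 against MPP3. DESeq2 called 1 in WT LT-HSC against MPP3, 2 in KO LT-HSC against MPP3 and 0 in KO MPP2 against MPP3. Of 12 signalling genes 0 passed by edgeR in any comparison, beside up to 2.64% of all genes. The comparison with the most calls by other tools was KO LT-HSC against MPP2, with 3 by limma voom and 2 by DESeq2. There 3 had an unadjusted p under 0.05, as 16.3% of all genes did. Jak1, at group means of 209 to 374 CPM, and Ptpn6, a phosphatase that damps the pathway, at 202 to 322 CPM, were the most abundant. Among 8 regulatory factor genes, Irf8, a factor of the monocyte and dendritic lineages, was lower in KO LT-HSC than in KO MPP3, at 1.74 against 86.6 CPM (-5.64 ± 1.30, edgeR adjusted p = 0.0234). That is 1 of 8, beside 2.64% of all genes. Between populations limma voom called 1 to 4 of the 8 and DESeq2 0 to 2, and limma voom called most in KO MPP2 against MPP3.

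Of 58 interferon target genes, 57 were tested and 3 passed by edgeR in 1 comparison each, which is 1 of 57 beside 1.81% of all genes in KO LT-HSC against MPP2, 2.64% in KO LT-HSC against MPP3 and 0.886% in KO MPP2 against MPP3. Other tools called more: limma voom 17 and DESeq2 8 in KO LT-HSC against MPP2, 5 and 4 in KO LT-HSC against MPP3, and 11 and 6 in KO MPP2 against MPP3. The shares of all genes that these tools called are not given here. At an unadjusted p under 0.05, 20 were higher and 2 lower, 4 higher and 6 lower, and 2 higher and 19 lower in these 3 comparisons. Of all genes tested, 16.3%, 15.6% and 14.5% reached it in either direction. In the same comparisons in WT, edgeR called 0 of the 57, beside 0.63%, 1.1% and 1.2% of all genes. There limma voom called 5, 5 and 0 and DESeq2 3, 1 and 3. At an unadjusted p under 0.05 in WT, 12 were higher and 1 lower, 5 higher and 1 lower, and 1 higher and 11 lower. For all genes tested the share in WT was 13%, 9.2% and 13.5%. Oasl2, of the oligoadenylate synthetase family, was higher in KO LT-HSC than in KO MPP2, at 184 against 62.6 CPM (log2 fold change 1.55 ± 0.37, edgeR adjusted p = 0.0374). Slfn2, a Schlafen protein of quiescent lymphocytes and myeloid cells, was higher in KO LT-HSC than in KO MPP3, at 110.0 against 11.2 CPM (3.29 ± 0.74, edgeR adjusted p = 0.0177). Dhx58, which regulates sensing of viral RNA, was lower in KO MPP2 than in KO MPP3, at 26.0 against 64.6 CPM (-1.31 ± 0.28, edgeR adjusted p = 0.0324). The median log2 fold change of LT-HSC against MPP2 over the 57 genes was 0.45 in WT and 0.68 in KO, beside 0.00 and -0.04 over all genes tested. Against MPP3 the median was 0.08 in WT and -0.02 in KO, beside -0.03 over all genes in each. The fold changes of Ifitm1 and Ifitm3 lay above the targets' median in all 4 of these comparisons. Since the IFITM genes were chosen by such fold changes, this was partly fixed by the choice, and nothing is read from it.

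Between KO and WT, 0 of the 57 target genes passed in LT-HSC, MPP2 or MPP3 by edgeR or limma voom, and DESeq2 called 0, 1 and 0. At an unadjusted p under 0.05, 2, 8 and 6 were higher and 0, 1 and 1 were lower. Of all genes tested, 2.43%, 6.72% and 5.62% reached it in either direction. The median fold change of the targets was 0.23, 0.15 and 0.32 on the log2 scale, with 45, 34 and 47 of 57 fitted higher in KO, beside medians of 0.00, 0.01 and 0.00 over all genes tested. In the same order of comparisons the fitted values were -0.21, -0.93 and -0.68 for Ifitm1 (0.04 in LT-HSC with the replicate block). They were 0.02, -0.34 and -0.22 for Ifitm2 and 0.23, -0.18 and 0.19 for Ifitm3. Ifitm3 in LT-HSC and MPP3 and Ifitm2 in LT-HSC thus lay on the targets' side of 0, each by less than its SE. The targets' comparisons and those of the 4 genes use the same libraries. Receptor, signalling and regulatory factor genes gave 0 calls between KO and WT by edgeR, DESeq2 or limma voom. At an unadjusted p under 0.05 there were 0 receptor genes in each population, 1 signalling gene in each of MPP2 and MPP3, and 1 regulatory factor gene in each of LT-HSC and MPP3. Of 10 genes whose products modify or bind IFITM proteins, 1 passed in KO LT-HSC against MPP3 by edgeR, beside 2.64% of all genes. It was Nedd4, a ubiquitin ligase of IFITM3, higher in KO LT-HSC at 444 against 276 CPM (log2 fold change 0.69 ± 0.16, edgeR adjusted p = 0.0258). Between KO and WT, 0 of the 10 passed by any of the 3 tools. There 2 in MPP2, and 0 in LT-HSC and MPP3, had an unadjusted p under 0.05.

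The neighbouring genes were also compared between the groups. Of 11 tested protein-coding genes within 100 kb (Bet1l, Ric8a, Sirt3, Psmd13, Nlrp6, Pgghg, Ifitm5, B4galnt4, Pkp3, Sigirr and Ano9), 0 passed between KO and WT by edgeR, DESeq2 or limma voom, with 2, 1 and 3 lower in KO and 0 higher at an unadjusted p under 0.05 in LT-HSC, MPP2 and MPP3. Of all genes tested, 2.43%, 6.72% and 5.62% reached that p in either direction. Between LT-HSC and the MPP populations edgeR called 0, beside 0.63% to 2.64% of all genes. DESeq2 called 1 in KO LT-HSC against MPP2 and limma voom 1 in WT LT-HSC against MPP2. There 0 to 5 had an unadjusted p under 0.05, beside 9.2% to 16.3% of all genes. Between MPP2 and MPP3, edgeR called 0 in WT and 1 in KO, beside 1.2% and 0.886% of all genes. DESeq2 called 2 and limma voom 1 in each genotype. Sirt3, a mitochondrial deacetylase, was lower in KO MPP2 than in KO MPP3, at 96.1 against 159.7 CPM (log2 fold change -0.73, edgeR adjusted p = 0.0482). Gm45717, annotated on the same strand over Ifitm5 and Ifitm2, had 0 counts, and how reads that it shares with Ifitm2 were counted is not given in the sources used here.

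**Figure D5:**
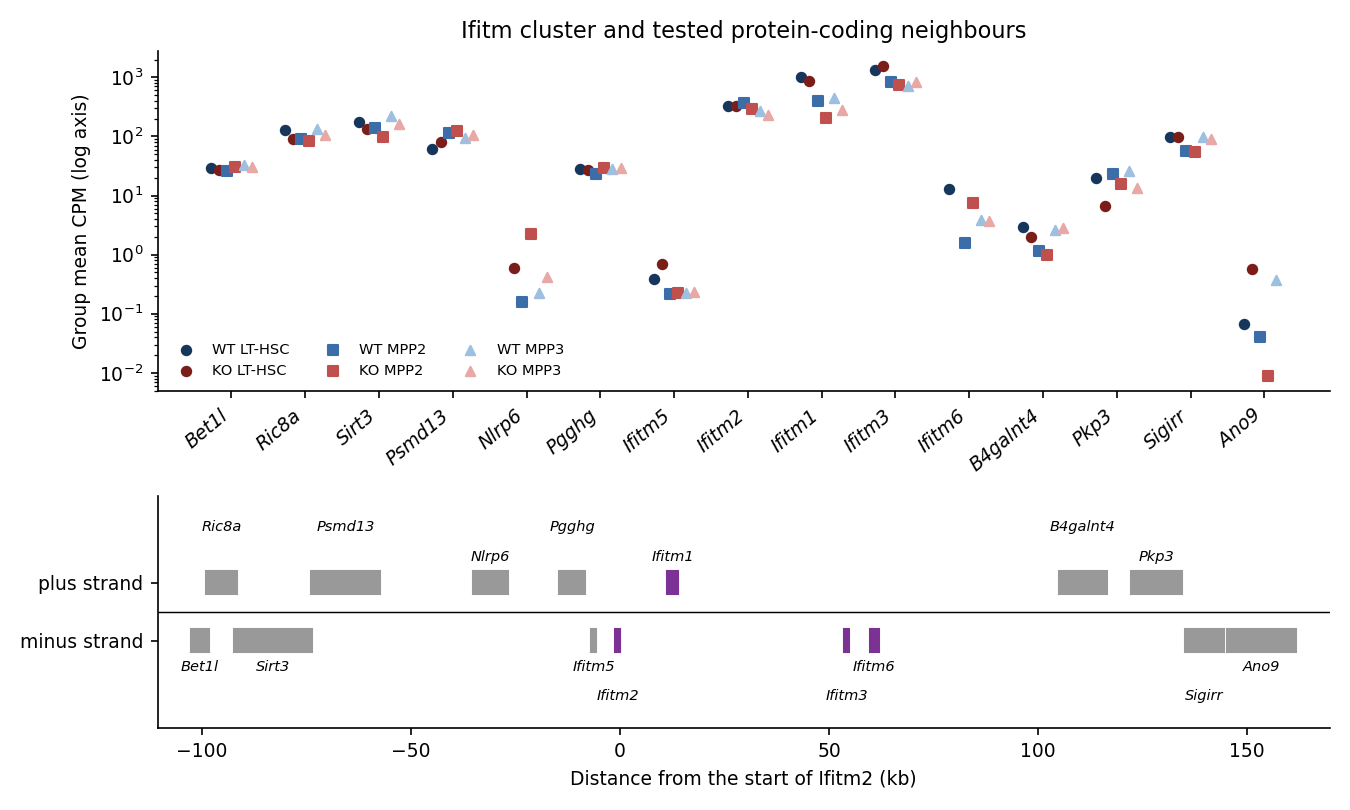
Group mean level (CPM, logarithmic axis; groups at 0 not drawn) of the 4 IFITM genes and 11 neighbouring protein-coding genes in their order along the chromosome, above a map of the genes in kilobases from the start of Ifitm2. Ifitm1 and Ifitm3 show a gap between the LT-HSC and the MPP groups.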

How the data were processed

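RNA-seq libraries were made with Nextera XT from total RNA of sorted cells, per the labels' protocols. The authors deposited raw read counts per Ensembl gene for the 21 libraries, with no normalization. STAR and mm10 are named in the submitters' processing notes; for the STAR version, the counting program and the annotation, no name or number is given in the sources used here. Of the gene IDs, 54409 matched GENCODE M21 and 37 did not. No 2 libraries held identical counts.

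Groups came from the titles. All libraries entered 1 edgeR 4.0.16 quasi-likelihood fit (R 4.3.3, TMM scaling, filterByExpr with a minimum count of 10), and p-values were adjusted by Benjamini-Hochberg over 21100 genes. Standard errors were the fold change divided by the square root of F. Alternatives were DESeq2 1.42.0, limma 3.58.1 (voom), RLE scaling, no filter, only the groups compared, a replicate block, each library left out in turn, and 2 chosen after seeing the data: without the 3 libraries above 2000 CPM of neutrophil markers, and without the 5 above 500 CPM of Jchain, a plasma cell gene. The fit was tested on simulated data. Sequences were read with Biopython 1.88.

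Same-numbered KO and WT libraries deviated together in MPP2 (r 0.482 to 0.574) and MPP3 (0.216 to 0.387), and less in LT-HSC (0.0903 to 0.152, 2 pairs). Some libraries of unlike number did so more: KO MPP2 4 gave 0.574 with WT MPP2 3 and 0.506 with WT MPP2 4. KO MPP3 4 gave 0.334 with WT MPP3 3 and 0.216 with WT MPP3 4. These r values thus do not single out the numbered pairs. The design text speaks of 4 pairs, and the numbers were taken to pair the samples. KO LT-HSC 3 was assigned to KO mouse 4 by its title number. The IFITM genes and all gene lists were chosen with earlier results of these data known. Besides the IFITM genes, the text names interferon and modifier list genes past the threshold with 10 CPM or more in the higher group, or the 2 most abundant, the 5 genes most correlated with each IFITM gene, tested coding neighbours, and markers; 1 gene correlated with Ifitm1 is not reported here. Limits from a count of 0 cover counting error only.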

Additional observations from a re-analysis of the deposited data

Results flagged for a closer look

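In 16 groups of 4 libraries, 1 for each of the 4 genes in each MPP2 and MPP3 group, the highest or lowest library was compared with the rest, and chance sets apart about 1 group in 20. In KO MPP3, Ifitm2 lay at 139 CPM in KO MPP3 2, far below the other 3 libraries (258 to 267 CPM). That library also had the lowest total of the series, 18892723 counts. In KO MPP2, Ifitm6 lay at 26.4 CPM in KO MPP2 1, far above the other 3 (0 to 2.80 CPM). That library had the highest summed neutrophil markers of the series, 17940 CPM, and the lowest TMM factor, 0.496. The part of depth or of neutrophil transcripts in these values was not tested.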

How the results depend on the processing

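Over the 12 comparisons, the count of the 4 genes past the threshold stayed within 1.5 times under 204 alternatives and moved under 15. It moved under 6 of 17 alternatives for KO LT-HSC against MPP3 and under 3 of 16 for WT LT-HSC against MPP3. No called fold change turned its direction. Between KO and WT in LT-HSC, DESeq2 called 1 gene (Ifitm6) where edgeR called 0, and it also called 1 (Ifitm6) for the difference of the KO effect between LT-HSC and MPP2. In WT, LT-HSC against MPP2 gave 2 calls with limma voom and 1 with DESeq2, and LT-HSC against MPP3 gave 2 with limma voom, 1 with DESeq2 and 1 with only the groups compared, against 0 by edgeR on all libraries. In KO, leaving out each library in turn gave 1 to 2 calls for LT-HSC against MPP2 and 1 to 2 for LT-HSC against MPP3, and Ifitm3 was the gene lost, whereas DESeq2 gave 3 in each, Ifitm1, Ifitm3 and Ifitm6. With only the groups compared, the 2 calls of KO LT-HSC against MPP3 were Ifitm1 and Ifitm6 in place of Ifitm1 and Ifitm3. With the replicate block the calls were 0 between KO and WT in each population and 2 in each of KO LT-HSC against MPP2 and MPP3. The block thus changed no count in these comparisons, and the Ifitm1 value in LT-HSC became 0.04. It grouped KO LT-HSC 3 with the libraries of number 3 and not with those of KO mouse 4, so it is not a pairing by mouse. Leaving out the libraries rich in neutrophil transcripts or in Jchain, chosen after seeing the data, changed no count in these comparisons. The cause of each change was not tested. RLE scaling moved the median of all genes by at most 0.0385 on the log2 scale. A block by mouse was fitted only between populations of 1 genotype. With it the Ifitm1 value in KO LT-HSC against MPP3 was 1.48, beside 1.63 in the main fit. Ifitm6 counts were 0 in 6 libraries, and the part of depth in this was not tested.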

Other observations

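Among the MPP libraries, Ifitm1 was lowest of its group in those of number 3: 236 CPM in WT MPP2 3, 242 CPM in WT MPP3 3, 113 CPM in KO MPP2 3 and 223 CPM in KO MPP3 3, the last level with KO MPP3 4. In LT-HSC, where WT has no number 3, KO LT-HSC 3 was the highest KO library for Ifitm1 (947 CPM). That library belongs by its title number to KO mouse 4.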
